A study of Sus scrofa and Rattus norvegicus with 8 samples.

Results

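The adipogenic transcription factors of pig backfat were examined in 10 genes: PPARG, CEBPA, CEBPB, CEBPD, EBF1, ZNF423, KLF4, KLF15, STAT5A and ADIRF. The members were the Ensembl gene IDs of the pig table whose gene name was one of these symbols. Each symbol matched 1 ID, which gave 10 of 25880 IDs in the table and 10 of its 14844 named nuclear genes. ADIRF is a small adipogenesis regulatory protein and not a DNA-binding factor, so 9 members are transcription factors proper.

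Fat cells form from precursor cells in a relay of transcription factors. C/EBP-beta and C/EBP-delta, together with KLF4 and STAT5, act early and switch on PPARG and C/EBP-alpha, which then sustain each other's transcription and turn on the genes of lipid uptake and storage. In mature white fat PPARG and C/EBP-alpha are known to stay on as keepers of the adipocyte state, and EBF1 and ZNF423 are linked to commitment of the precursors.

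The data were RNA-seq profiles of the upper layer of backfat, a subcutaneous white fat, from 6 adult female Bama pigs aged 2 years. They were produced as part of a survey of transcription across pig tissues and of fat across mammals. The 6 libraries form 1 group with no treatment, named here replicates 1 to 6 as in the labels. The values below are thus levels and spreads without a test between groups. Levels are in TPM, a length-corrected abundance on a fixed total per library, which keeps no read counts, so that the depth of the libraries is unknown and no counting error can be given.

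The composition of the libraries was unequal and touches every level below. Named nuclear genes held 24.1 to 26.3% of the TPM in replicates 1, 2, 3 and 6, but 3.34% in replicate 4 and 4.73% in replicate 5. The mitochondrially encoded protein genes held 10.8 to 21.2% in the same 4 libraries and 0.209 and 0.298% in replicates 4 and 5. The rest lay in IDs without a name. Replicates 4 and 5 also had fewer IDs over 0.1 TPM, at 12735 and 13294 against 16733 to 17089 in the other 4. The median named nuclear gene had 0.390 and 0.531 TPM there, against 4.21 to 4.93 TPM in the others. Each value is therefore given as deposited and as rescaled TPM, in which the named nuclear genes of a library sum to 1000000. The rescaling multiplied replicates 4 and 5 by 29.9 and 21.1 and the other 4 libraries by 3.80 to 4.15. Rescaling does not level all genes, since the median of 12036 genes was still 0.55 lower (log2 of the ratio of mean rescaled TPM) in replicates 4 and 5 than in the other 4.

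The label of fat tissue was checked with marker genes. All 7 measured adipocyte markers of a list of 8 were over 1 TPM in every pig, beside 30.9% of named nuclear genes. They were led by FABP4, a fatty acid carrier, at 18679 ± 7299 rescaled TPM (SD, n = 6), and ADIPOQ, the adipokine adiponectin, at 2992 ± 520.3 rescaled TPM (SD, n = 6). The lowest adipocyte marker was leptin (LEP) at 285 ± 147 rescaled TPM (SD, n = 6). Markers of other cells were present too. Over 1 TPM in every pig were 5 of 5 measured endothelial, 6 of 8 stromal, 5 of 8 macrophage, 1 of 7 lymphoid and 0 of 3 muscle markers. This threshold alone therefore does not set adipocytes apart from endothelium. DCN and COL1A1 of stromal cells had 6179 and 2428 rescaled TPM, PECAM1 of endothelium had 714, and MRC1 of macrophages had 154 (means over the 6 pigs). All 3 measured genes of the skeletal muscle list lay under 2 rescaled TPM on average. In a bulk library, fewer cells of a type and less RNA per cell cannot be told apart.

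The sequences just before the start sites are shown for CEBPA and CEBPD, which were both highest in replicates 4 and 5 after rescaling and parted in replicate 3, and for PPARG, which was lowest in replicates 4 and 5. They are the 250 bases upstream of the gene start in RefSeq on Sscrofa11.1, written 5′ to 3′ on the strand of the gene, with capitals for the GC-box letters GGGCGG and for CACCC, both on either strand (CCGCCC and GGGTG). These are letters that SP and Krüppel-like factors can bind. The windows lie at chr6:43085885-43086134 (minus strand) for CEBPA, chr4:79872613-79872862 (plus strand) for CEBPD and chr13:68301316-68301565 (plus strand) for PPARG.
CEBPA: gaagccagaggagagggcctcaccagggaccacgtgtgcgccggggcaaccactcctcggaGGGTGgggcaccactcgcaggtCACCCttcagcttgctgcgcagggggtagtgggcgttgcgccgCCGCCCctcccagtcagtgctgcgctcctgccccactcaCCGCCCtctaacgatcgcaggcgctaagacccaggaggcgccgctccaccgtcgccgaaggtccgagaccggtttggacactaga
CEBPD: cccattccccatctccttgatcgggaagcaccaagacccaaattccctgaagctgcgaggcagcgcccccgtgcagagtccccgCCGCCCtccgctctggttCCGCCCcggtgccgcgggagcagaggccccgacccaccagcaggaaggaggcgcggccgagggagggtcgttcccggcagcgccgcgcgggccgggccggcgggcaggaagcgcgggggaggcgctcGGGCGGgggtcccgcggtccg
PPARG: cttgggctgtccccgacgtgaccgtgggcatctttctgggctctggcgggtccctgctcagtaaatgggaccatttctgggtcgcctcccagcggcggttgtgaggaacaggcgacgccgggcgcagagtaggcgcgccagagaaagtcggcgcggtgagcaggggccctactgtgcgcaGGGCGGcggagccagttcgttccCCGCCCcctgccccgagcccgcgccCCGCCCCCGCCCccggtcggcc

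All 3 windows are rich in G and C, at 68.8% for CEBPA, 76.0% for CEBPD and 72.4% for PPARG, against a median of 57.6% over 19501 promoters of the same length. GGGCGG occurred 2 times for CEBPA, 3 times for CEBPD and 4 times for PPARG, and 46.0% of all promoters held it. CACCC occurred 2 times for CEBPA and was not found in the other two windows, and 53.9% of all promoters held it. The letters CCAAT (31.9% of promoters), TATAAA (9.76%), the CRE letters TGACGTCA (1.70%) and the C/EBP letters TTGCGCAA, TTGCACAA and TTGCATAA (0.164, 0.554 and 0.492%) were in none of the 3 windows on either strand. Among the 9 windows searched, KLF15 alone held a CCAAT and a GGGTGTG, the latter in 6.26% of promoters and able to overlap CACCC where its reverse strand reads CACACCC. CEBPB was not searched, because its RefSeq model starts with the coding sequence. Each window lies before the outermost start of its gene in RefSeq, so any transcript start inside a gene was not searched. For PPARG, RefSeq holds 8 transcripts. A match describes letters only.

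All 10 members were transcribed in fat. Every member was over 0.1 TPM in all 6 pigs, beside 67.2% of named nuclear genes. Over 1 TPM in all 6 pigs were 9 of 10 members, beside 30.9% of named nuclear genes. ZNF423 was the exception, with 0.448 TPM in replicate 4 and 0.746 TPM in replicate 5. The median over members of the mean level was 37.5 TPM as deposited and 266 rescaled TPM.

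**Figure D1:**
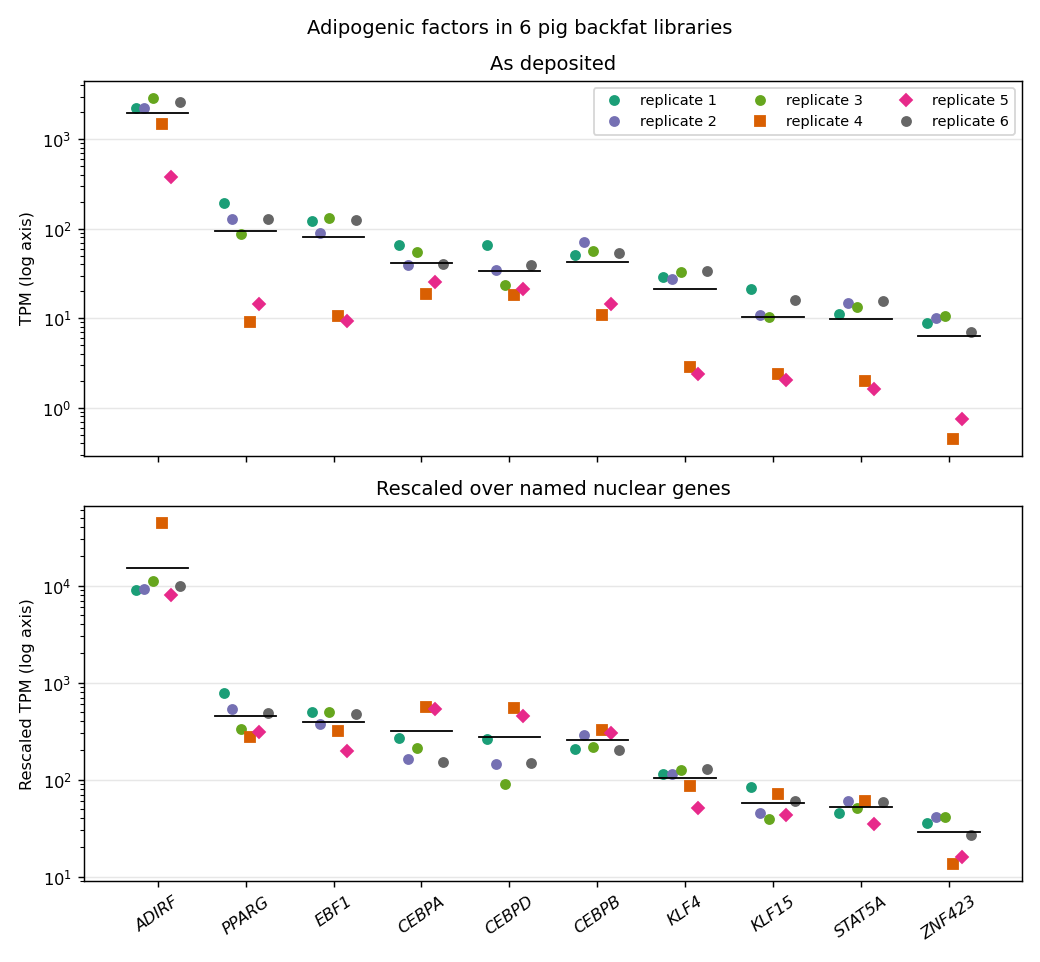
TPM as deposited (top) and rescaled TPM (bottom), both on log axes, of the 10 members in each of the 6 pig libraries, with a bar at the mean. Replicates 4 and 5 lie lowest for all 10 members as deposited, whereas after rescaling they lie highest for CEBPA, CEBPD and CEBPB and lowest for PPARG, EBF1, KLF4 and ZNF423.

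PPARG (ENSSSCG00000011579), the nuclear receptor that drives adipocyte differentiation, lies on chromosome 13 at 68301566 to 68433951 on the plus strand. RefSeq holds 8 transcripts for it, and the gene-level values do not separate isoforms. As deposited it had 194, 128, 87.9, 9.16, 14.5 and 129 TPM in replicates 1 to 6, with a mean of 93.9 ± 72.2 TPM (SD, n = 6). After rescaling it had 778, 533, 336, 274, 306 and 490.03 rescaled TPM, with a mean of 453 ± 190.02 (SD, n = 6). Replicate 1 was the highest on both scales, and replicates 4 and 5 lay below the rest, only just under replicate 3 once rescaled. Among named nuclear genes of the same library PPARG ranked between percentiles 96.8 and 99.1.

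CEBPA (ENSSSCG00000002866), which encodes C/EBP-alpha, the partner of PPARG in terminal differentiation, lies on chromosome 6 at 43083200 to 43085884 on the minus strand and has a single-exon transcript of 2685 bases. It had 66.6, 39.4, 55.5, 18.8, 25.5 and 40.4 TPM in replicates 1 to 6, and 267, 163, 212, 562, 539 and 153 rescaled TPM. The mean was 41.02 ± 17.9 TPM and 316 ± 186 rescaled TPM (SD, n = 6). Replicates 4 and 5 were thus the lowest libraries as deposited and the highest after rescaling. Without them the rescaled mean was 199 ± 51.9 (SD, n = 4).

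CEBPD (ENSSSCG00000032367), the early-acting C/EBP-delta, lies on chromosome 4 at 79872863 to 79874481 on the plus strand, with a single-exon transcript of 1619 bases. It had 66.2, 34.96, 23.8, 18.2, 21.5 and 39.2 TPM, and 265, 145, 90.9, 544, 454 and 149 rescaled TPM. The rescaled mean was 275 ± 185 (SD, n = 6), and 162 ± 73.3 (SD, n = 4) without replicates 4 and 5. As for CEBPA, these libraries were the highest after rescaling, followed by replicate 1.

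CEBPB (ENSSSCG00000034207), the early-acting C/EBP-beta, lies on chromosome 17 at 51722633 to 51723673 on the plus strand, and its single-exon RefSeq model of 1041 bases holds coding sequence only. It had 51.5, 70.2, 56.6, 10.9, 14.3 and 53.3 TPM, and 206, 291, 216, 327, 301 and 202 rescaled TPM. Its rescaled mean of 257 ± 55.4 (SD, n = 6) had a CV (SD divided by mean) of 0.215, against 0.589 for CEBPA and 0.674 for CEBPD. Replicates 4 and 5 were again the highest, but close to replicate 2.

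EBF1 (ENSSSCG00000017046), an early B-cell factor that also promotes adipocyte differentiation, lies on chromosome 16 at 64357999 to 64753188 on the plus strand. It had 123, 90.8, 130.2, 10.6, 9.32 and 125 TPM, and 492, 377, 498, 316, 197 and 476 rescaled TPM, with a rescaled mean of 393 ± 120.2 (SD, n = 6). Among replicates 1, 2, 3 and 6 its CV was 0.123. ZNF423 (ENSSSCG00000002838), a zinc-finger protein that marks committed precursors and binds EBF proteins, lies on chromosome 6 at 34929286 to 35299695 on the plus strand. It had 8.93, 10.02, 10.7, 0.448, 0.746 and 6.999 TPM, and 35.7, 41.6, 40.8, 13.4, 15.8 and 26.6 rescaled TPM. It was the lowest member on both scales, at 6.30 ± 4.59 TPM and 29.0 ± 12.4 rescaled TPM (SD, n = 6). Both genes were lower in replicates 4 and 5 than in the others on either scale.

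KLF4 (ENSSSCG00000005437), a Krüppel-like factor known to act on CEBPB early in differentiation, lies on chromosome 1 at 248604817 to 248609574 on the minus strand. It had 28.8, 27.6, 32.5, 2.87, 2.40 and 33.9 TPM, and 115, 114, 124, 85.9, 50.8 and 129 rescaled TPM. Its level was even in replicates 1, 2, 3 and 6, with a CV of 0.0576, the smallest of the 10 members there. KLF15 (ENSSSCG00000036742), a later-acting Krüppel-like factor linked to glucose uptake in fat, lies on chromosome 7 at 53877813 to 53890558 on the minus strand. It had 21.2, 10.8, 10.2, 2.37, 2.02 and 15.9 TPM, and 84.7, 44.8, 39.1, 71.1, 42.8 and 60.5 rescaled TPM. Replicate 1 was the highest for KLF15, and replicates 4 and 5 lay among the others after rescaling.

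STAT5A (ENSSSCG00000017402), a transducer of growth hormone and prolactin signals that also promotes fat cell formation, lies on chromosome 12 at 20474221 to 20498785 on the minus strand. It had 11.3, 14.6, 13.4, 2.00, 1.64 and 15.4 TPM, and 45.2, 60.7, 51.3, 59.9, 34.6 and 58.4 rescaled TPM. After rescaling it was the steadiest member over all 6 pigs, at 51.7 ± 10.3 rescaled TPM (SD, n = 6) with a CV of 0.199.

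ADIRF (ENSSSCG00000037918) was by far the most abundant member. It lies on chromosome 14 at 87928721 to 87930935 on the plus strand and has a transcript of 408 bases, the shortest of the members. It had 2258, 2216, 2884, 1462, 378 and 2599 TPM, and 9039, 9192, 11017, 43774, 7988 and 9865 rescaled TPM. Replicate 4 stood far above the other 5 libraries after rescaling, but not as deposited, where it was the lowest but for replicate 5. The rescaled mean of 15146 ± 14061 (SD, n = 6) rests on that library, and was 9420.1 without it. ADIRF alone made up 4.38% of the named nuclear TPM in replicate 4 and 0.799 to 1.10% in the others. The 9 transcription factors together took 0.161 to 0.229% in the 6 libraries, with replicates 4 and 5 inside this range at 0.225 and 0.194%.

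The order of the members by mean rescaled TPM was ADIRF, PPARG, EBF1, CEBPA, CEBPD, CEBPB, KLF4, KLF15, STAT5A and ZNF423. Of the 9 pairs of neighbours in this order, ranges over the 6 pigs did not overlap for ADIRF above PPARG and for CEBPB above KLF4. The upper gene was the higher in 6 of 6 pigs also for CEBPA above CEBPD, KLF4 above KLF15 and STAT5A above ZNF423. The other 4 pairs changed order between pigs. Of these, PPARG and EBF1, CEBPD and CEBPB, and KLF15 and STAT5A did not differ beyond their spread. EBF1 exceeded CEBPA in each of replicates 1, 2, 3 and 6, and was below it in replicates 4 and 5. In replicates 1, 2, 3 and 6 EBF1 had 377 to 498 rescaled TPM, against 153 to 267 for CEBPA. By mean over replicates 1, 2, 3 and 6, CEBPB stood above CEBPA and CEBPD, at 229, 199 and 162 rescaled TPM. The other members kept their places. In replicate 1, however, CEBPB was the lowest of these 3, at 206 against 267 for CEBPA and 265 for CEBPD. The most abundant transcription factor was PPARG in replicates 1, 2 and 6, EBF1 in replicate 3 and CEBPA in replicates 4 and 5.

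Ratios between members were read within each library, where no scaling of the whole library can change them. A shift that differs between genes stays in such ratios. Replicates 4 and 5 held a shift that varied with transcript length and exon number, given below. CEBPA has a single-exon RefSeq model and PPARG does not. PPARG over CEBPA, the central pair of the network, had log2 ratios of 1.55, 1.71, 0.66, -1.04, -0.82 and 1.68 in replicates 1 to 6. PPARG was thus the higher in 4 pigs, by up to 3.26-fold, and the lower in replicates 4 and 5, where it had 0.488 of the CEBPA level at the least. The mean log2 ratio of 0.62 ± 1.26 (SD, n = 6) was smaller than its spread, and was 1.40 without replicates 4 and 5. CEBPB over CEBPA had a log2 ratio of -0.12 ± 0.67 (SD, n = 6), with CEBPB the higher in 3 of 6 pigs. CEBPD was below CEBPA in all 6 pigs, by no more than 0.25 (log2) in 5 of them and by 1.22 in replicate 3. KLF4 exceeded KLF15 in all 6 pigs, with log2 ratios of 0.25 to 1.67 and a mean of 0.85 ± 0.61 (SD, n = 6).

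Of the 45 pairs of members, EBF1 and KLF4 had the most constant ratio. EBF1 was 4.27, 3.29, 4.01, 3.68, 3.88 and 3.70 times KLF4 in replicates 1 to 6, and the SD of the log2 ratio was 0.13. Both genes ran in parallel through all 6 libraries, replicates 4 and 5 included. How many other genes keep as constant a ratio to EBF1 or KLF4 was not counted. CEBPD and ZNF423 had the least constant ratio, with an SD of 1.67 and an 18.2-fold range between pigs. Pairs share the libraries and their composition, so that these SDs are a description over 6 points.

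**Figure D2:**
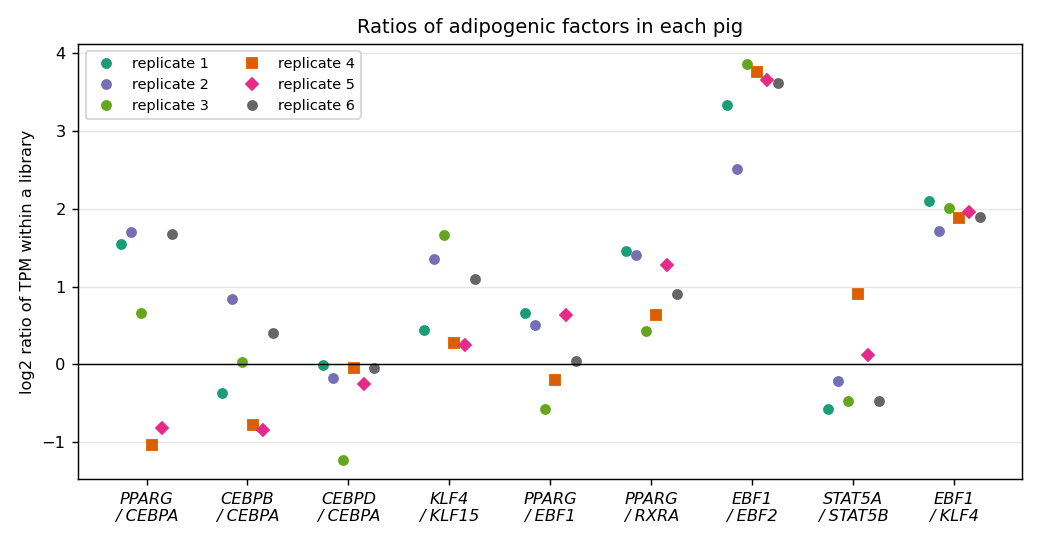
Log2 ratio of TPM between pairs of genes within each library, for 9 pairs in the 6 pigs, with a line at 0 where both genes are equal. PPARG over CEBPA lies above 0 in replicates 1, 2, 3 and 6 and below 0 in replicates 4 and 5, whereas EBF1 over KLF4 stays between 1.72 and 2.09.

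The members parted in replicates 4 and 5, which the labels do not set apart and which were distinguished here by composition alone. Both also had fewer IDs over 0.1 TPM, as given above. As deposited, all 10 members were lower in both than in any other library, as were 98.7% of 12036 genes. After rescaling, 4 of 10 members (PPARG, EBF1, KLF4 and ZNF423) were below all other libraries in both, beside 50.3% of all genes, which is near that background. Above all other libraries in both were 3 of 10 members (CEBPA, CEBPD and CEBPB), beside 10.4% of all genes. The other 3 members, KLF15, STAT5A and ADIRF, lay on neither side. CEBPD was 3.07-fold, CEBPA 2.77-fold and CEBPB 1.37-fold higher in replicates 4 and 5 by mean rescaled TPM, at percentiles 99.3, 99.0 and 90.5 of all genes by this difference. PPARG, EBF1 and KLF4 were 1.84-, 1.80- and 1.77-fold lower and ZNF423 2.48-fold lower, which placed them at percentiles 35.7, 37.3, 38.3 and 21.3.

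The side of the C/EBP genes did not depend on the choice among 3 scales, but that of the lower members did. CEBPA, CEBPD and CEBPB were above all other libraries in both after rescaling, median-centring and quantile normalization, where 10.4, 27.7 and 27.5% of all genes were. Their count of 3 of 10 members is thus near the background on the latter pair of scales. For the lower side these shares were 50.3, 28.4 and 25.9%. ZNF423 was below under all 3 scales, whereas PPARG, EBF1 and KLF4 were below after rescaling and quantile normalization but not after median-centring, which left 1 of 10 members below. With medians centred, CEBPD and CEBPA were 2.16 and 2.00 higher and PPARG 0.33 lower (log2 of the ratio of means).

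Transcript length and exon number moved with this difference. The median log2 difference between replicates 4 and 5 and the other 4 libraries was -0.16 for 2502 genes with a longest RefSeq transcript under 2000 bases, -0.51 for 3823 genes of 2000 to under 4000 bases and -0.77 for 4743 genes of 4000 bases or more. It was -0.09 for 89 single-exon genes, with quartiles of -0.65 and 0.53. Of the 10 members, the 3 C/EBP genes alone have a single exon in their RefSeq model. The 4 members with a positive difference (ADIRF, CEBPB, CEBPD and CEBPA) are, with PPARG at 2115 bases, the 5 shortest. For ADIRF the difference rests on replicate 4, since replicate 5 (7988 rescaled TPM) was below all the others. The ADIRF difference was 1.91 after median-centring and -0.04 after quantile normalization, which gives equal ranks equal values in each library. ADIRF ranked at percentile 99.9 or above in every library, so quantile normalization leaves little room for a difference. CEBPA (1.47) and CEBPD (1.62) lay above the upper quartile of single-exon genes, CEBPB (0.46) lay below it, and PPARG (-0.88) lay below the median of its length class. The part of length or exon number in the members' levels was not tested.

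**Figure D3:**
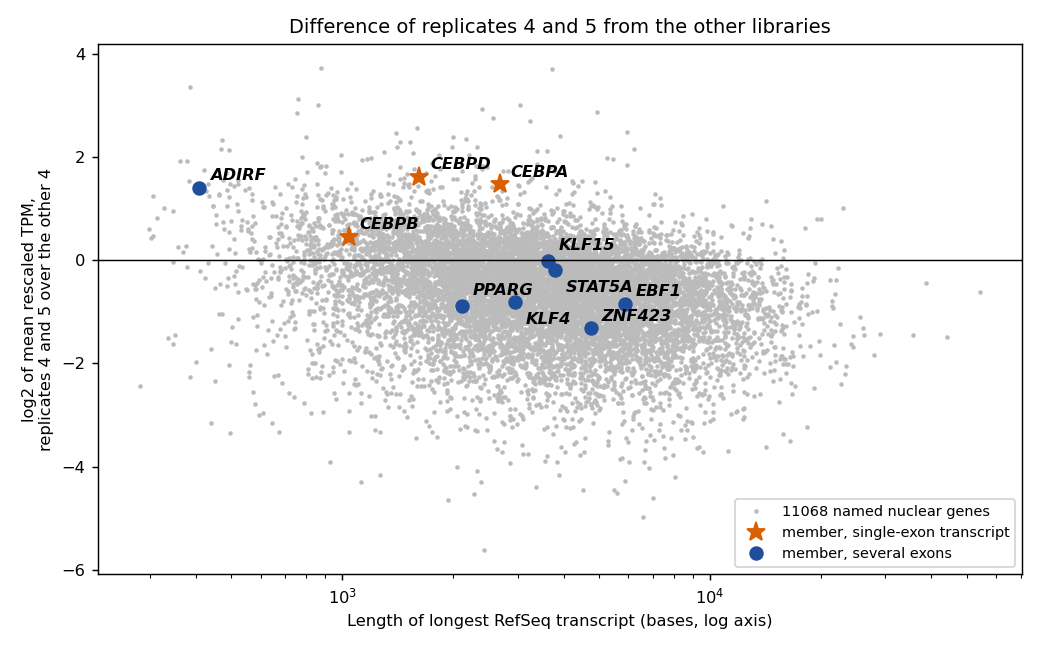
Log2 of the mean rescaled TPM in replicates 4 and 5 over that in the other 4 libraries (vertical axis) against the length in bases of the longest RefSeq transcript on a log axis (horizontal axis), for 11068 named nuclear genes in grey and the 10 members. CEBPD, CEBPA, ADIRF and CEBPB lie above 0, KLF15 lies at -0.01, and the other 5 members lie below it.

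Cell type markers were counted in the same libraries, beside the 50.3% of all genes that were below in both after rescaling. Of 8 measured stromal and progenitor markers 6 were below all other libraries in both replicates 4 and 5 after rescaling, and their sum was 5301 and 5542 there against 8410 to 15599 rescaled TPM elsewhere, with DCN the largest part. The same held for 4 of 5 endothelial markers (sums of 644 and 780 against 1096 to 1407), 4 of 8 macrophage markers, 3 of 7 lymphoid markers and 2 of 3 muscle markers, of which the macrophage and lymphoid counts are near that background. After median-centring, where 28.4% of all genes were below, the counts were 4 stromal, 2 endothelial, 4 macrophage, 1 lymphoid and 2 muscle markers. Of the 7 adipocyte markers, PLIN1 and LIPE were below and CIDEC was above in both. No measured marker was listed at 0 in all 6 pigs, and TNNT3 of muscle was listed at 0 in replicate 6. The part of cell makeup in the members' levels was not tested.

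Paralogues of the members were read next, to see which copy of each family was transcribed in fat. Of the other C/EBP genes, CEBPG, which encodes a widely expressed dimer partner, had 71.9 ± 13.6 rescaled TPM (SD, n = 6), and CEBPE, a factor of granulocytes, had at most 0.284. CEBPB kept a steady ratio to CEBPG, with a mean log2 ratio of 1.83 ± 0.17 (SD, n = 6). EBF1 was the most abundant EBF gene in all 6 pigs, at 5.72 to 14.5 times EBF2 and 4.97 to 12.4 times EBF3. The means of EBF3, EBF2 and EBF4 were 50.8, 37.9 and 1.48 rescaled TPM. PPARG was at 3.89 to 10.1 times PPARA, the receptor of fatty acid oxidation, and at 8.80 to 35.4 times PPARD.

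The Krüppel-like and STAT members were not the leading copies of their families. KLF6 (445 ± 143 rescaled TPM, SD, n = 6), KLF9 (277 ± 109.9) and KLF2 (126 ± 52.9) had higher means than KLF4 (103 ± 29.7), while KLF10 (93.3 ± 39.0) and KLF13 (83.3 ± 27.2) lay between KLF4 and KLF15 (57.2 ± 18.2). KLF1, the red cell factor, was listed at 0 in every pig. STAT3, at 150 ± 33.8 rescaled TPM (SD, n = 6), exceeded STAT5A in each pig. STAT2, STAT6, STAT5B and STAT4 had means of 75.4, 69.8, 58.8 and 2.38 rescaled TPM. STAT5A and its close copy STAT5B did not differ beyond their spread, with a log2 ratio of -0.12 ± 0.56 (SD, n = 6) and STAT5A the higher in replicates 4 and 5 only. Reads shared between such close copies could be split either way by the quantification.

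**Figure D4:**
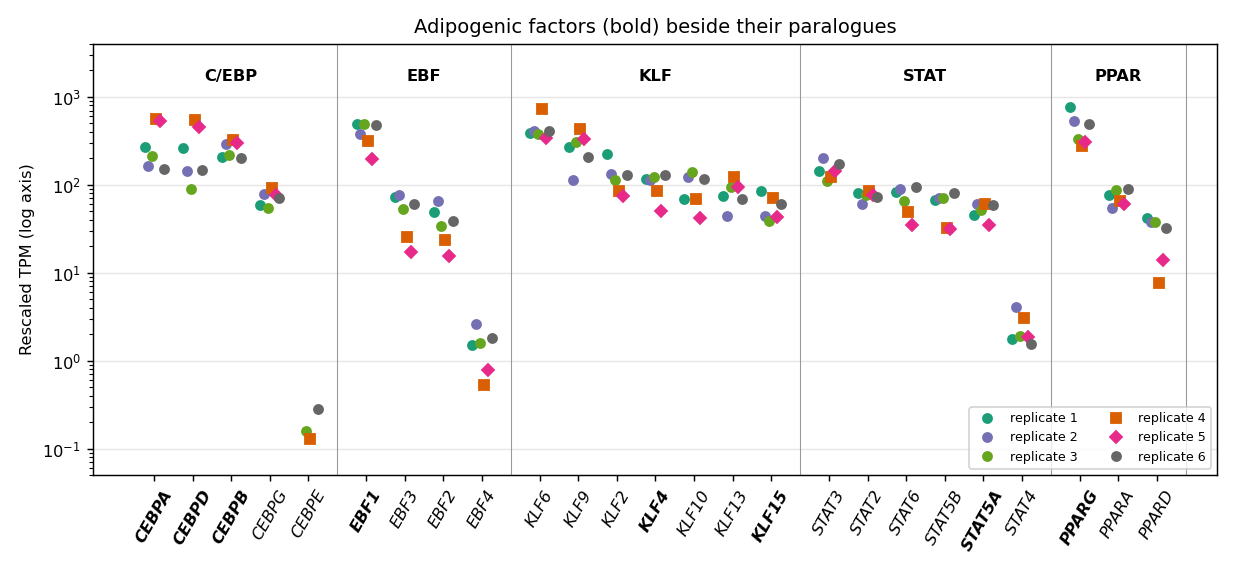
Rescaled TPM on a log axis in each of the 6 pigs for the members (bold names) and their paralogues, with values of 0 not drawn. EBF1 and PPARG lie above the other genes of their families in every pig, whereas KLF4 and KLF15 lie among other Krüppel-like factors and STAT5A lies below STAT3.

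The partners and cofactors that the members work with were all measured. RXRA, the receptor that pairs with PPARG on DNA, had 216 ± 59.1 rescaled TPM (SD, n = 6) and was the highest of 8 partner and related receptors, followed by NR3C1, the glucocorticoid receptor, at 145 ± 11.4, with RXRG the lowest at 6.72. PPARG exceeded RXRA in all 6 pigs by 1.35- to 2.75-fold. Of 13 coregulators, EP300, a histone acetyltransferase, had a mean of 85.2 rescaled TPM, and PPARGC1A, the coactivator of mitochondrial and thermogenic genes, had the lowest, 0.653. In replicates 4 and 5, 11 of 13 coregulators were below all other libraries after rescaling, and 10 of 13 after either median-centring or quantile normalization, beside 50.3, 28.4 and 25.9% of all genes. None of the gene lists was matched to all genes by transcript length, with which the difference of these libraries moved.

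Other factors of fat cell formation were compared with the members. Of 10 other positive factors 9 were measured, led by NFIB and NFIA, nuclear factor I proteins, at 271 ± 151 and 256 ± 151 rescaled TPM (SD, n = 6). These means were close to those of CEBPD and CEBPB, but the libraries were not alike. NFIB had 330 to 406 rescaled TPM in replicates 1, 2, 3 and 6, and 84.5 and 73.8 in replicates 4 and 5. CEBPD had 90.9 to 265 and then 544 and 454 in the same libraries. EGR2 was the lowest at 8.47. All 9 were below the other libraries in replicates 4 and 5 after rescaling, but 4 of 9 after median-centring and 5 of 9 after quantile normalization, beside the same shares of all genes (50.3, 28.4 and 25.9%). Of 16 factors that restrain differentiation 15 were measured, and their median of 10.3 rescaled TPM was below the level of each of the 10 members. ID3, an inhibitor of basic helix-loop-helix factors, and TCF7L2, an effector of Wnt signalling, led them at 191 ± 81.8 and 149 ± 112 rescaled TPM (SD, n = 6). DLK1, the marker of undifferentiated preadipocytes also called Pref-1, was the lowest at 0.0215 rescaled TPM, and was listed at 0 in replicates 2 and 3. Of the 15, 8 were below the other libraries in replicates 4 and 5 after rescaling, which is near the background of 50.3%, and 6 after either other scaling, beside 28.4 and 25.9%.

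Genes known as targets of PPARG and C/EBP-alpha were then set against PPARG within each library. Of 19 targets 16 were measured, and all 16 were over 0.1 TPM in every pig, with FABP4 and SCD, a fatty acid desaturase, the highest at 18679 and 7440 rescaled TPM, and PCK1, an enzyme of glyceroneogenesis, the lowest at 24.1. FABP4 was 13.3, 33.7, 71.5, 72.9, 94.5 and 22.1 times PPARG in replicates 1 to 6. SCD was 5.44, 4.78, 24.8, 36.1, 61.1 and 1.84 times PPARG, the widest range of the 16. ADIPOQ was 4.82 to 10.2 times PPARG and PLIN1, the lipid droplet coat protein, 2.75 to 5.88 times.

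The lowest and highest ratios to PPARG were then counted by pig. In replicate 1, with the highest PPARG level, the ratio to PPARG was the lowest of the 6 pigs for 7 of 16 targets and the highest for none. The ratio was highest in replicate 3 for 7 of 16, in replicate 5 for 5 and in replicate 4 for 3, the libraries with the 3 lowest PPARG levels after rescaling. PCK1 was the exception with its highest ratio, 0.173, in replicate 2. Since PPARG is the denominator of each ratio, a low PPARG level raises all 16 together and a high level lowers them. These counts are therefore partly built in. Replicate 1 itself had the highest rescaled TPM of the 6 pigs for ADIPOQ (3746) and PLIN1 (2137), and the lowest for FABP4 (10370) alone. In rescaled TPM, 5 of 16 targets (SCD, FASN, CIDEC, GPD1 and SLC2A4) were above all other libraries in replicates 4 and 5 and 4 of 16 (PLIN1, LIPE, PNPLA2 and PCK1) below, beside 10.4 and 50.3% of all genes. After median-centring 7 were above and 2 below, beside 27.7 and 28.4% of all genes. After quantile normalization 4 were above and 5 below, near the background of 27.5 and 25.9%.

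**Figure D5:**
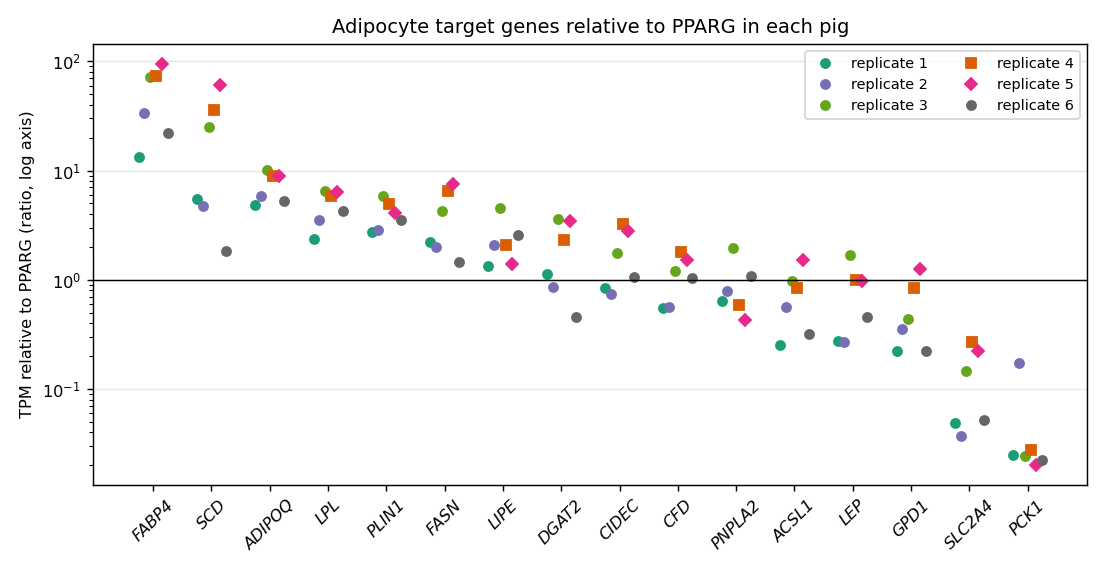
TPM of 16 target genes relative to PPARG in the same library (ratio, log axis) in the 6 pigs, with a line at 1 where a target equals PPARG. The ratios for FABP4 run from 13.3 in replicate 1 to 94.5 in replicate 5, and the highest ratio falls in replicate 3, 4 or 5 for all targets but PCK1.

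The genes whose levels ran most nearly parallel to PPARG were found by the SD of the log2 ratio across the 6 pigs, over 8852 named nuclear genes with a mean of at least 10 rescaled TPM. ALG8, a glycosyltransferase, had the smallest SD, 0.07, followed by DDB2 (0.08), a DNA damage protein, TSC22D4 (0.08), the receptor GPR176 (0.08) and the chemokine receptor ACKR3 (0.09). The median SD was 0.57. ALG8 had 34.1, 24.9, 14.9, 13.7, 14.8 and 22.8 rescaled TPM in replicates 1 to 6, highest in replicate 1 and lowest in replicates 3, 4 and 5 as PPARG was. No member was near the top, the closest being EBF1 with an SD of 0.50, which 37.4% of genes undercut. CEBPA had an SD to PPARG of 1.26, larger than that of 97.6% of genes.

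For CEBPB the most parallel genes were OXR1, an oxidation resistance gene, with an SD of 0.05, SLC31A2 (0.09), a copper transporter, and IRGQ, TMEM33 and SUCO (0.10 each), against a median of 0.59. OXR1 had 168, 239.5, 183, 262, 232 and 159 rescaled TPM, high in replicates 2, 4 and 5 as CEBPB was. Among the members, STAT5A was the closest to CEBPB with an SD of 0.45, which 30.6% of genes undercut. CEBPD was the member closest to CEBPA, with an SD of 0.47, which 2.15% of genes undercut. These lists rest on 6 points that share library composition, and without replicates 4 and 5 the 5 genes nearest to PPARG shared 2 with those named and the 5 nearest to CEBPB shared 0.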

How the data were processed

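Total RNA of backfat from 6 pigs was depleted of ribosomal RNA and made into stranded Illumina libraries, per the labels. The authors computed TPM per gene with kallisto 0.43.0, named in the submitters' processing notes with Sscrofa11.1, and deposited them as 1 pig table of 25880 IDs. No source used here ties an annotation release to the table. TPM keep no counts, so the depth is unknown and the precision comes from the spread between pigs. The table of 2 rat libraries was not used, since the rule was on pig genes.

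Symbols were matched by ID for 14857 IDs, of which 13 were mitochondrially encoded and 14844 nuclear. Each library was rescaled so that the named nuclear TPM sum to 1000000. A gene was called detected at over 0.1 TPM. Means, SDs, CVs, rank percentiles and log2 ratios without a pseudocount were computed with Python 3.11.15, pandas 2.3.3 and numpy 2.4.6. Only the rescaling and the SD of log2 ratios were tried on simulated data, where all genes of a library shared the same factor. The shift left in replicates 4 and 5 after rescaling was not simulated. With 1 group there was no contrast, so no test between groups was run. Library values that stood apart were flagged with the Dixon outlier rule. Replicates 4 and 5 were compared with the other 4 over 12036 genes with a mean of at least 1 rescaled TPM and above 0 in every pig, of which 11068 (92.0%) had a RefSeq length. Coordinates, lengths and upstream sequences are from RefSeq on Sscrofa11.1, matched by symbol. All 10 members matched, and 250 bases upstream were searched for 9.

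The members and the gene lists were chosen with earlier results of these data known. Named were all members, their paralogues in the C/EBP, EBF and STAT families, the 5 highest other Krüppel-like factors, the 2 highest and the lowest gene of each list, and the 5 genes most parallel to PPARG and to CEBPB. Some genes under this rule are not reported here. Genes named beyond this were chosen after their values were seen. Alternatives were other scalings, thresholds and pseudocounts and leaving out libraries.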

Additional observations from a re-analysis of the deposited data

Results flagged for a closer look

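Of 31 sets of 6 pig values examined for the members and their ratios, 3 had a library whose gap to the nearest other was a large part of the whole range, where chance marks about 1 in 20 sets. ADIRF stood apart in replicate 4, at 43774 rescaled TPM against 7988 to 11017 in the others, but not as deposited. CEBPD over CEBPA stood apart in replicate 3, with a log2 ratio of -1.22 against -0.25 to -0.01 elsewhere, where CEBPD had 90.9 rescaled TPM. CEBPB over CEBPG stood apart in replicate 6, with a log2 ratio of 1.52 against 1.81 to 1.98 elsewhere. The causes were not tested.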

How the results depend on the processing

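No paired analysis was possible because the values come from no test between groups, and the replicate numbers shared by the pig and rat labels pair no animals. The detected members numbered 10 when any library was left out and 9 at over 1 TPM. The median member level was 37.5 TPM, 31.7 to 41.3 TPM when 1 library was left out, and 266 after rescaling, since fewer genes then share the total. The median member CV was 0.667 as deposited, 0.507 to 0.773 when 1 library was left out, 0.165 without replicates 4 and 5, 0.369 after rescaling, 0.336 after median-centring and 0.286 after quantile normalization. On the rescaled scale the median level of 266 became 232 to 288 when 1 library was left out and 181 without replicates 4 and 5, and the median CV of 0.369 became 0.326 to 0.413 and 0.187.

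The mean log2 ratio of PPARG to CEBPA was 0.41 to 0.96 when 1 library was left out, that of CEBPB to CEBPA was -0.31 to 0.02, that of CEBPD to CEBPB -0.35 to 0.05 and that of KLF4 to KLF15 0.68 to 0.97. The ratio of CEBPB to CEBPA turned positive without replicate 4 or 5 and that of CEBPD to CEBPB without replicate 3. Adding 0.1 or 1 TPM moved none of these 4 ratios by its SD. Leaving out 1 of 6 libraries cannot move a mean by 1 SD. That check of the single member means could thus not fail, and its 0 of 60 moved on either scale gives no support. Rescaling, which changes the total shared, moved 10 of 10 of these means as deposited, and quantile normalization moved 2 of 10. Without replicates 4 and 5, 2 of the 5 genes nearest to PPARG and 0 of those nearest to CEBPB were shared with those named.

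Chosen after seeing the data were the last check for CEBPB and the other scales for replicates 4 and 5. Members below in both numbered 10 as deposited and after removal of mitochondrially encoded genes, 4 after rescaling and 1 after median-centring, and members above numbered 0, 0, 3 and 3. Low genes are limited by a depth that TPM do not keep.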

Other observations

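Immediate early genes, transcripts that rise within minutes of a stimulus or of tissue handling, were read beside the early-acting members. All 10 on the list were over 0.1 TPM in every pig, led by DUSP1, a phosphatase, at 530.2 ± 191 and JUN at 428 ± 154 rescaled TPM (SD, n = 6), with ATF3 the lowest at 36.3. In replicates 4 and 5, JUN, EGR1, ZFP36 and IER3 were below all other libraries after rescaling, and IER2 and JUNB were above them, beside 50.3% of all genes below and 10.4% above. EGR1 had 29.3 and 41.6 rescaled TPM there against 171 to 406 in the others, and JUNB had 116 and 171 against 52.6 to 103.

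The genes most parallel to CEBPA, chosen after their values were seen, were led by IGFBP6, a binding protein of insulin-like growth factors, with an SD of the log2 ratio of 0.15, and ALDH1L1, a folate enzyme, with 0.18, against a median of 1.09 over 8852 genes. IGFBP6 had 116, 69.0, 79.7, 203, 254 and 69.9 rescaled TPM in replicates 1 to 6.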
